A study of Mus musculus with 37 samples.

Results

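The 10 mouse genes described here had an RNA level that differed between Arid1a knockout (KO) and wild-type (WT) cells in the same direction at each of 3 sampled days. Plcb2, Lsp1, Cd34, Sla, Samsn1 and Rtraf were higher in KO, and Hal, Pde2a, Ndrg1 and Ap2m1 were lower. They were chosen by their KO minus WT differences at days 0, 2 and 4, so those differences are given as descriptions with no test. The 10 genes are among 23170 listed in the deposited table, and all 10 were among the 12774 with enough counts to be tested. All libraries came from bone-marrow-derived macrophages put through osteoclastic differentiation, the route by which macrophages become the multinucleated cells that resorb bone. The 6 groups were WT and Arid1a KO cells, each at day 0, day 2 and day 4, with 2 libraries in each and 12 in all. The series asks how Arid1a, which encodes a subunit of BAF, a complex that remodels chromatin, and the AP-1 factors Jun and Fos act in the making of osteoclasts. The labels name neither the promoter of a recombinase nor the age or number of mice, and they do not say whether replicates are separate cultures or mice. P-values therefore measure only the spread between these libraries, which may be technical.

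Total counts ran from 16282164 to 18608353 per library. At day 0 Arid1a ranged from 197 to 242 CPM (counts scaled to library size) in WT and from 94.6 to 104 CPM in KO, a log2 difference of -1.15 ± 0.14 (SE, adjusted p = 0.0141 in edgeR's quasi-likelihood test). Its difference was -0.54 ± 0.14 at day 2 (adjusted p = 0.0613) and -0.71 ± 0.14 at day 4 (adjusted p = 0.00793), with both KO libraries under both WT libraries at each day. The day 0 call was lost without KO day 0 replicate 1 or 2 and the day 4 call without WT day 4 replicate 1. Lyz2, the lysozyme gene that marks macrophages, ranged from 36018 to 41319 CPM in WT and from 36.4 to 49.2 CPM in KO at day 0. The other 8 macrophage markers, Csf1r and Adgre1 among them, were all at 1 CPM or more in every group. Of the 9, Lyz2 alone was called lower in KO at each day, Fcgr1 was called higher at day 2, and 6, among them Adgre1, Mertk and Itgam, were called higher at day 4, when the list's median log2 difference was 2.30. Summed over 10 osteoclast markers, levels were 171.9 to 278.8 CPM in WT and 200.4 to 222.1 CPM in KO at day 0, 2644 to 2919 CPM against 234.9 to 259.1 CPM at day 2 and 15700 to 20290 CPM against 1671 to 4594 CPM at day 4. None of these markers was called higher in KO, and 3 were called lower at day 2 and 5 at day 4, with a median log2 difference of -4.12 and then -2.59. Sums of 10 stromal markers ran from 28.9 to 5493 CPM over the libraries, with replicates at 251.6 and 2734 CPM in WT at day 0 and at 28.9 and 900.0 CPM in KO at day 4, and those of 11 neutrophil markers ran from 1.74 to 289 CPM and of 9 mast cell and basophil markers up to 7.58 CPM. Their part in the values below was not tested.

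The 10 genes encode proteins of varied function. Plcb2 and Pde2a encode enzymes of second messengers: phospholipase C beta cleaves a membrane lipid into inositol trisphosphate and diacylglycerol when G proteins activate it, and phosphodiesterase 2A breaks down cyclic AMP and cyclic GMP. Lsp1 encodes an actin-binding protein of leukocytes, and Sla and Samsn1 encode adaptors that dampen signalling from antigen receptors in lymphocytes. Cd34 encodes a sialomucin of the surface of blood stem and progenitor cells and of endothelium. Hal encodes histidine ammonia-lyase, the first enzyme of histidine breakdown, and Ndrg1 is a gene known to respond to hypoxia and other stresses. Ap2m1 encodes the mu subunit of the AP-2 adaptor, which picks cargo for clathrin-coated vesicles, and Rtraf encodes a subunit of the tRNA ligase complex. BAF complexes open chromatin at regulatory DNA, and AP-1 factors are among those that bind there in macrophages and osteoclasts.

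The promoter stretches below, the 250 bases before the annotated start, are shown for Hal, which had the widest difference of the genes lower in KO at each day, for Cd34, which had the widest of those higher in KO at days 0 and 2, and for a further gene of each direction that held a motif, Samsn1 and Ap2m1. They are from RefSeq, build GRCm38.p6, for which 7 of the 10 genes matched. Hal is on the plus strand at chr10:93488518-93488767, Cd34 on the plus strand at chr1:194938571-194938820, Samsn1 on the minus strand at chr16:75909267-75909516 and Ap2m1 on the plus strand at chr16:20535230-20535479. Capitals mark matches, on either strand, to an AP-1 motif (TGANTCA), an ETS or PU.1 motif (GAGGAAG) or an E-box (CACGTG), which do not overlap one another.
Hal: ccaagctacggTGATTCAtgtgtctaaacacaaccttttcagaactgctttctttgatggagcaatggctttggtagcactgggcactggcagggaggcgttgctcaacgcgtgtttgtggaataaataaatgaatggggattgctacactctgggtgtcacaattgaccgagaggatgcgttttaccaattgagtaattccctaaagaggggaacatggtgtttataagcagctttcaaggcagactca
Cd34: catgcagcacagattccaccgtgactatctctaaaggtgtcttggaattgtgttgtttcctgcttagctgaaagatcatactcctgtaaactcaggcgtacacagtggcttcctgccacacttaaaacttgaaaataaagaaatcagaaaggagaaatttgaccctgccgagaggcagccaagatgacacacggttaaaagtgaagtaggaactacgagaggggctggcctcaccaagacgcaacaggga
Samsn1: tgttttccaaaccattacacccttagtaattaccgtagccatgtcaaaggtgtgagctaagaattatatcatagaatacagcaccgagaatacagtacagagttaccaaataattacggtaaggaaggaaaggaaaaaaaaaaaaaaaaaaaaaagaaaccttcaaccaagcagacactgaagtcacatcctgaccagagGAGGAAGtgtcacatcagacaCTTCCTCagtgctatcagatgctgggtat
Ap2m1: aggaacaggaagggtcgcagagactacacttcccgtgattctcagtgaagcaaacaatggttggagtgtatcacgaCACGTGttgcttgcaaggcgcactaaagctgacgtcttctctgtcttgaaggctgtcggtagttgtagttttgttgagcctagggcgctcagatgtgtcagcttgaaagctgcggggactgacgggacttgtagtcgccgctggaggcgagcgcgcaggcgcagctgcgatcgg
The AP-1 match of Hal began 239 bases before the start. In TGANTCA the letter N was allowed to be any base, and Hal held T there. With the same allowance, 6.75% of 32841 mouse promoters of this length hold that motif. Samsn1 held the ETS or PU.1 motif at 50 and 29 bases before its start, in opposite orientations, and 1 of 5 listed starts of Pde2a held it at 26 bases. That motif is in 10.6% of promoters. The E-box of Ap2m1 began at 174 bases, and 6.02% of promoters hold an E-box. These letters were not found in the windows of Cd34, Plcb2 or Rtraf. The matches are descriptions of letters and not evidence of binding.

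At each day both KO libraries lay on 1 side of both WT libraries for all 10 genes. Over the 12774 tested genes, such a separation at each of the 3 days held for 8.71% with KO higher and 5.53% with KO lower. The 10 genes also kept the genotypes apart when days were pooled: the 6 KO libraries lay all above or all below the 6 WT libraries. That wider separation held for 1.73% of tested genes with KO higher and 0.791% with KO lower. Because these contrasts chose the genes, the counts describe the choice. Of all tested genes, 42.0% had a difference of the same sign at the 3 days, and 1.58% were called at day 0, 4.52% at day 2 and 25.6% at day 4 (adjusted p under 0.05, edgeR quasi-likelihood test). The differences of the chosen genes ran in size from 0.31, for Plcb2 at day 4, to 8.99, for Hal at day 0, on the log2 scale. In bulk RNA, fewer cells of a type and less RNA per cell cannot be told apart.

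**Figure D1:**
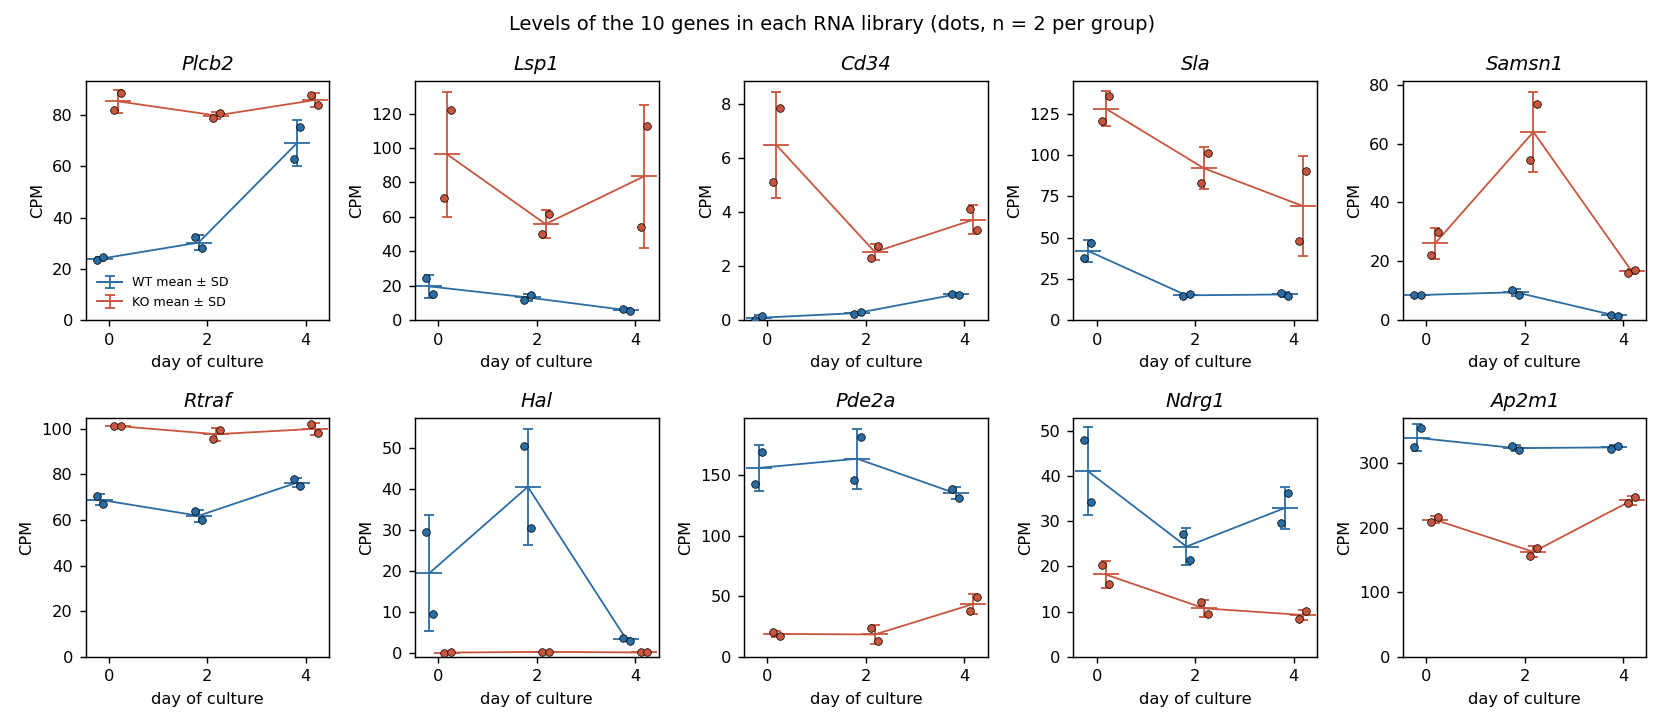
Level (CPM) of each of the 10 genes at days 0, 2 and 4. Dots are libraries, horizontal marks means and bars SDs (n = 2), blue for WT and red for KO. The red and blue dots of a panel do not overlap at any day, and Hal in KO stays between 0 and 0.273 CPM.

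Plcb2 was set apart most at day 0, before differentiation, and least at day 4. For Plcb2 the WT libraries held 23.3 and 24.5 CPM at day 0, 32.2 and 28.2 CPM at day 2 and 62.7 and 75.5 CPM at day 4. In KO, Plcb2 stood at 82.1 and 88.6 CPM, 78.9 and 80.7 CPM, and 87.9 and 83.8 CPM at the same days. The WT level of this phospholipase gene was highest at day 4, nearest to a KO level whose days 0 and 4 overlapped. The log2 difference, KO minus WT, was 1.84 ± 0.12 (SE) at day 0, 1.40 ± 0.12 at day 2 and 0.31 ± 0.12 at day 4, and the last was 0.18 without WT day 4 replicate 1.

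Pde2a differed the other way between genotypes. Its WT libraries held 143 and 169 CPM at day 0, 146 and 181 CPM at day 2 and 139 and 132 CPM at day 4. Its KO libraries held 20.7 and 17.1 CPM, 23.9 and 12.96 CPM, and 37.8 and 49.5 CPM. In KO, days 0 and 2 overlapped and day 4 lay above both, while in WT days 0 and 2 overlapped and day 4 lay below them. This phosphodiesterase gene differed by -3.04 ± 0.29 on the log2 scale at day 0, by -3.15 ± 0.29 at day 2 and by -1.63 ± 0.27 at day 4.

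The actin-binding gene Lsp1 held 24.3 and 14.9 CPM in WT at day 0, 11.9 and 14.4 CPM at day 2 and 6.48 and 5.08 CPM at day 4. In KO the gene stood at 70.8 and 122 CPM, 50.0 and 61.6 CPM, and 54.2 and 113 CPM. WT levels of the 3 days did not overlap and were lowest at day 4, whereas the KO libraries of days 0 and 4 spread widely and overlapped. The log2 difference was 2.30 ± 0.41 at day 0, 2.08 ± 0.41 at day 2 and 3.85 ± 0.45 at day 4, and the last was 3.23 without KO day 4 replicate 2. Prr33, a gene that overlaps Lsp1 in the RefSeq annotation, averaged at most 1.09 CPM in any group.

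Sla, the adaptor gene, held 37.4 and 46.6 CPM in WT at day 0, 14.5 and 15.5 CPM at day 2 and 16.7 and 14.4 CPM at day 4. In KO it held 121 and 136 CPM, 83.0 and 101 CPM, and 47.9 and 90.5 CPM. Levels were highest at day 0 in both genotypes, and days 2 and 4 overlapped in each. Its log2 difference was 1.61 ± 0.27 at day 0, 2.62 ± 0.28 at day 2 and 2.15 ± 0.28 at day 4. Tg, which overlaps Sla and encodes thyroglobulin, averaged at most 0.673 CPM.

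Samsn1, the other adaptor gene, had a peak at day 2 in KO that WT did not share in size. WT libraries held 8.61 and 8.40 CPM at day 0, 10.3 and 8.67 CPM at day 2 and 1.75 and 1.49 CPM at day 4. KO libraries held 22.2 and 29.9 CPM, 54.4 and 73.5 CPM, and 16.02 and 17.0 CPM. In KO the 3 days did not overlap, with day 4 lowest as in WT. The log2 difference was 1.61 ± 0.20 at day 0, 2.75 ± 0.21 at day 2 and 3.35 ± 0.23 at day 4. Markers of cell types that also use these adaptors were low: 9 T and NK cell markers summed to at most 4.13 CPM and 6 B cell markers to at most 15.4 CPM in any library, with the B cell gene Pax5 at 0 in all 6 groups. The 8 dendritic cell markers summed to 10.1 to 13.5 CPM in WT and 43.4 to 80.4 CPM in KO at day 4, mainly Itgax, and 15.4 to 21.6 CPM against 9.46 to 11.5 CPM at day 0. Their part in the day 4 difference was not tested.

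Cd34 was near the detection floor in WT and low but present in KO. The WT libraries held 0 and 0.166 CPM at day 0, 0.222 and 0.301 CPM at day 2 and 0.978 and 0.923 CPM at day 4. Those of KO held 5.10 and 7.85 CPM, 2.31 and 2.73 CPM, and 4.10 and 3.33 CPM. In counts over both libraries this is 3 against 208 at day 0, 9 against 77 at day 2 and 37 against 140 at day 4. The KO to WT ratio of these pooled counts was 75.6 at day 0, 9.67 at day 2 and 3.92 at day 4, given with no test. With so few WT counts the fitted log2 difference at day 0, 6.15 ± 0.78, was 9.82 with WT day 0 replicate 2 left out and 5.20 with replicate 1 left out. Fitted differences were 3.24 ± 0.67 at day 2 and 1.96 ± 0.59 at day 4.

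Markers of the cells in which Cd34 is best known were set beside it. The 8 progenitor markers, which include Kit and Gata2, summed to 2.33 to 12.6 CPM over all libraries. Summed endothelial markers, 8 genes, ranged from 7.40 to 20.4 CPM in WT. In KO they ranged from 33.3 to 58.4 CPM at day 0, 28.4 to 63.0 CPM at day 2 and 105 to 724 CPM at day 4. Most of the KO sum was Kdr, a receptor of vascular endothelial growth factor, at 104 and 723 CPM at day 4 (adjusted p = 0.00570 in edgeR's quasi-likelihood test), while the endothelial gene Emcn was at 0 in KO at each day. Kdr was the only call among the 4 endothelial markers with enough counts to be tested, whose median log2 difference was 1.01 at day 0, -0.30 at day 2 and -0.98 at day 4. Pecam1, for example, averaged 0.256 CPM in WT and 0.0277 CPM in KO at day 4 (adjusted p = 0.126). The part of Kdr-expressing cells in the Cd34 difference was not tested.

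Hal lay below the range of WT in every KO library. WT libraries held 29.4 and 9.44 CPM at day 0, 50.5 and 30.5 CPM at day 2 and 3.55 and 2.97 CPM at day 4. KO libraries held 0 and 0.0644 CPM, 0.125 and 0.273 CPM, and 0.0512 and 0.0555 CPM. WT levels of the 3 days did not overlap, with day 2 highest, and KO held 1, 6 and 2 counts in all at the 3 days against 676, 1417 and 127 in WT. The WT to KO ratio of these pooled counts was 620 at day 0, 209 at day 2 and 61.2 at day 4. These ratios are given with no test and do not show the gap between WT replicates. The fitted log2 differences were -8.99 ± 0.91, -7.64 ± 0.75 and -5.76 ± 0.87 in the same order, and the first depended on single counts: it was -11.42 with KO day 0 replicate 2 left out and -8.09 with replicate 1 left out. Leaving out WT day 0 replicate 1 gave -7.98 and WT day 0 replicate 2 gave -9.59, and at day 2 leaving out KO replicate 2 gave -8.27.

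Ndrg1 was set apart most at day 4. The stress-response gene held 47.9 and 34.2 CPM in WT at day 0, 27.2 and 21.5 CPM at day 2 and 29.5 and 36.2 CPM at day 4. Its KO libraries held 20.4 and 16.03 CPM, 12.1 and 9.35 CPM, and 8.45 and 10.04 CPM. Days 0 and 4 overlapped in WT, days 2 and 4 in KO. The log2 difference was -1.17 ± 0.23 at day 0, -1.19 ± 0.24 at day 2 and -1.83 ± 0.24 at day 4.

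Ap2m1, the endocytosis gene, varied little between replicates. WT libraries held 325 and 354 CPM at day 0, 326 and 320.3 CPM at day 2 and 322 and 327 CPM at day 4. KO libraries held 208 and 216 CPM, 156 and 169 CPM, and 238 and 247 CPM. The WT days overlapped one another and the KO days did not, with day 2 lowest. The log2 difference was -0.68 ± 0.09 at day 0, -0.99 ± 0.09 at day 2 and -0.42 ± 0.09 at day 4. RefSeq lists a processed pseudogene named after Ap2m1 and another named after Rtraf, and how reads were shared with them is not given in the sources used here.

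Rtraf, the tRNA ligase subunit gene, held 70.6 and 67.1 CPM in WT at day 0, 63.7 and 59.9 CPM at day 2 and 77.8 and 74.9 CPM at day 4. In KO it held 101 and 101 CPM, 95.6 and 99.6 CPM, and 102 and 98.0 CPM. In KO the day 4 range overlapped that of day 0, and that of day 2 as well, while days 0 and 2 did not overlap each other. The 3 WT days did not overlap. The log2 difference was 0.56 ± 0.08 at day 0, 0.66 ± 0.08 at day 2 and 0.39 ± 0.08 at day 4. Nid2, which overlaps Rtraf, averaged 3.15 to 17.1 CPM over the groups and was not called at any day (adjusted p = 0.529, 0.338 and 0.473). Without a stated strand setting, reads from overlapping genes cannot be told apart. Mir139, which overlaps Pde2a, is listed at 0 in all 12 libraries, and Gm16897, which overlaps Cd34, was not analysed here.

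**Figure D2:**
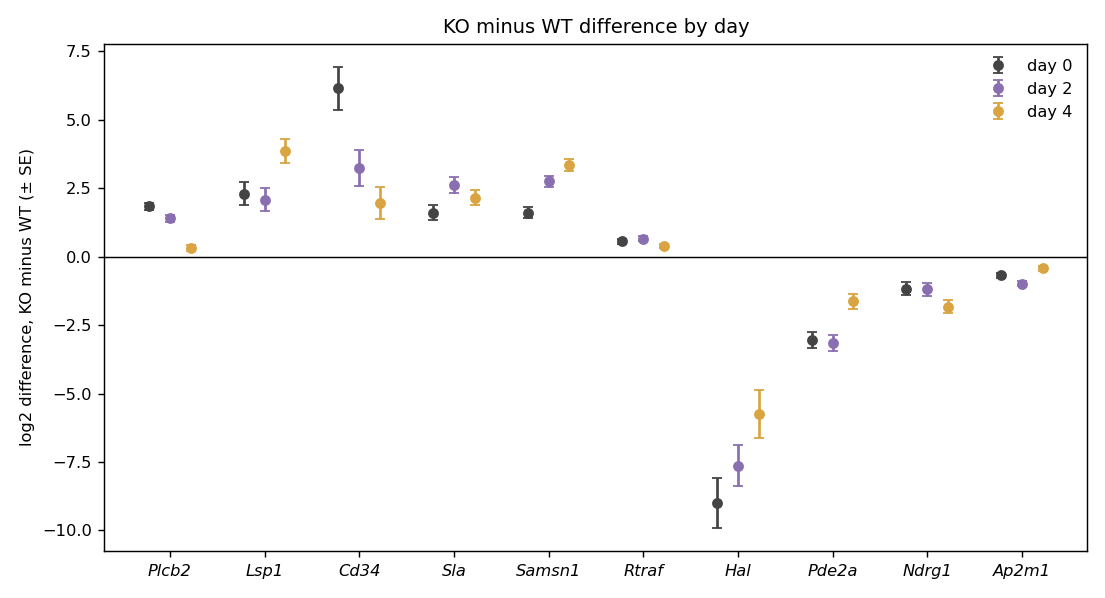
KO minus WT difference (log2, points) of each gene at days 0, 2 and 4 with its SE (bars), from the fit of all 12 libraries. Differences are widest at day 0 for Plcb2, Cd34 and Hal, at day 2 for Pde2a, Sla, Ap2m1 and Rtraf, and at day 4 for Lsp1, Samsn1 and Ndrg1.

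On the TPM scale, which divides by transcript length and so allows levels of different genes to be set side by side, Ap2m1 had the highest level of the 10 in each of the 6 groups. It averaged 332 to 348 TPM in WT and 143 to 253 TPM in KO, and at KO day 2 its lower library, 127 TPM, lay near Rtraf, at 118 to 120 TPM. Lsp1 had rank 4 of the 10 in WT at day 0, at 30.5 ± 9.94 TPM (SD, n = 2), with Sla at 25.6 ± 4.999 TPM and Ndrg1 at 24.5 ± 5.11 TPM within its spread. In KO at day 0 Lsp1 had rank 2, at 143 ± 55.6 TPM, a range that took in Rtraf at 127 ± 4.67 TPM. Pde2a had rank 3 in WT at each day, at 63.9 to 75.5 TPM on average, and rank 6 to 8 in KO, at 7.81 to 20.4 TPM. The last 2 places were held by Cd34 and Hal in KO at each day.

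A test over time with both genotypes averaged does not use the KO minus WT difference, so it was made for the 10 genes. It is apart from the choice only where both genotypes are measured about equally well. Cd34 in WT and Hal in KO had too few counts for that. The Cd34 call below is therefore not free of the choice. The log2 average of Cd34 rose while its mean CPM over both genotypes went from 3.28 at day 0 to 2.33 at day 4. At day 2 against day 0, Samsn1 rose and Ndrg1, Sla and Ap2m1 fell, 4 of 10, while 24.5% of all tested genes were called. Samsn1 rose by 0.73 ± 0.14 on the log2 scale (SE, adjusted p = 0.00793), Sla fell by 0.98 ± 0.19 (adjusted p = 0.00821), Ndrg1 fell by 0.76 ± 0.16 (adjusted p = 0.0128) and Ap2m1 fell by 0.23 ± 0.07 (adjusted p = 0.0368). At day 4 against day 0, 7 of 10 were called, near the 63.6% of all tested genes. Plcb2 rose by 0.77 ± 0.08 (adjusted p = 5.24e-05), Pde2a by 0.50 ± 0.19 (adjusted p = 0.0447) and Cd34 by 1.29 ± 0.48 (adjusted p = 0.0421). Samsn1 fell by 1.52 ± 0.15 (adjusted p = 3.11e-05), Sla by 1.16 ± 0.19 (adjusted p = 0.000677), Ndrg1 by 0.65 ± 0.16 (adjusted p = 0.00745) and Lsp1 by 0.98 ± 0.29 (adjusted p = 0.0161). Several of these values average unlike changes. At day 2 Samsn1 changed by 0.16 in WT and 1.296 in KO, Sla by -1.48 and -0.48, and Ap2m1 by -0.07 and -0.38. At day 4 the changes in WT and KO were 1.53 and 0.01 for Plcb2, 3.39 and -0.80 for Cd34, -0.21 and 1.21 for Pde2a, -1.76 and -0.21 for Lsp1, and -0.32 and -0.98 for Ndrg1. All of these p-values are from edgeR's quasi-likelihood test, adjusted over the 12774 genes.

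Samsn1 was called in opposite directions at the 2 later days, and Ndrg1 and Sla in the same direction at both. Hal was not called at day 2 (log2 change 1.74 ± 0.76, adjusted p = 0.127) or day 4 (-0.95 ± 1.23, adjusted p = 0.515), and Rtraf was not called at day 2 (-0.10 ± 0.06, adjusted p = 0.223) or day 4 (0.07 ± 0.06, adjusted p = 0.345). Several calls lay near the threshold and were lost when 1 library was left out. This held even for libraries of a day outside the contrast. Cd34 at day 4 was lost without a day 2 library of either genotype, though its change stayed at 1.28 or 1.29. Ap2m1 at day 2 was lost in 9 of the 12 fits that left out 1 library, Pde2a at day 4 in 9 and Cd34 at day 4 in 11, with adjusted p up to 0.121, 0.148 and 0.121. Ap2m1 stayed called without WT day 0 replicate 1, KO day 4 replicate 1 or KO day 4 replicate 2, Pde2a without KO day 2 replicate 1, KO day 2 replicate 2 or KO day 4 replicate 1, and Cd34 without WT day 0 replicate 2. Lsp1 at day 4 was lost without WT day 0 replicate 1 (adjusted p = 0.0516), WT day 4 replicate 2 (0.0612) or KO day 0 replicate 2 (0.0532), Ndrg1 at day 2 without WT day 2 replicate 2 (0.0538), and Hal at day 2 was gained without WT day 0 replicate 1 (0.0227). For Cd34 the change was 3.12 with WT day 0 replicate 2 left out and 0.82 with replicate 1 left out.

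**Figure D3:**
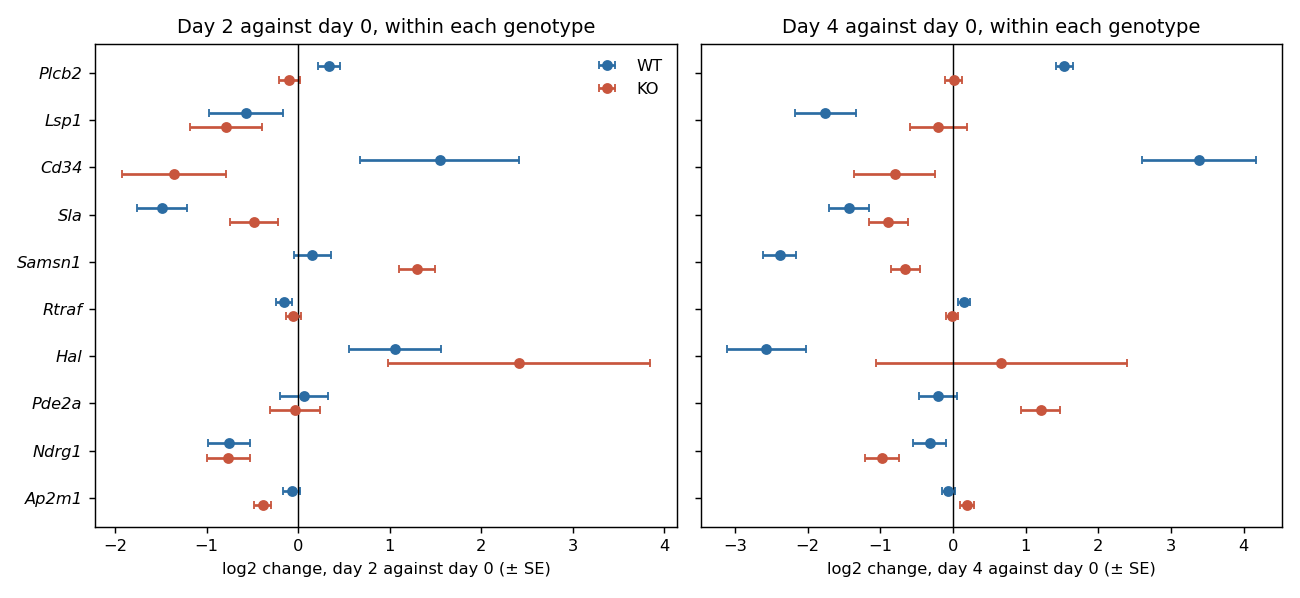
Change over time (log2, points, with SE as bars) from day 0 to day 2 (left) and day 4 (right) within WT (blue) and KO (red) for each gene. The genotypes lie on opposite sides of 0 for Cd34 at both days, at 1.55 and -1.36 and then at 3.39 and -0.80.

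Within each genotype, given as descriptions, the genes took different courses. In WT the largest changes from day 0 to day 4 on the log2 scale were 3.39 for Cd34, from very few counts, 1.53 for Plcb2, -2.57 for Hal, -2.39 for Samsn1, -1.76 for Lsp1 and -1.43 for Sla. The same changes in KO were -0.80 for Cd34, 0.01 for Plcb2, 0.67 for Hal, -0.65 for Samsn1, -0.21 for Lsp1 and -0.89 for Sla. Each of these 6 changes was smaller in size in KO than in WT, which naming the genes by their largest WT changes favours. Pde2a, Ndrg1 and Ap2m1 instead changed more in KO. Pde2a changed by -0.21 in WT and 1.21 in KO, Ndrg1 by -0.32 and -0.98, and Ap2m1 by -0.06 and 0.19. Rtraf changed by 0.15 in WT and -0.02 in KO. These differences between genotypes follow from the KO minus WT values that chose the genes and were not tested.

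Genes of the same families and pathways, which played no part in the choice, were compared between genotypes with the test over all genes. Beside the counts of each list below stand the shares of all tested genes called: 1.58% at day 0, 4.52% at day 2 and 25.6% at day 4. Whether a list differed from those shares was not tested. Of 20 tested genes of phospholipase C signalling other than Plcb2, 1 was higher in KO at day 0, 1 at day 2, and 6 were higher and 1 lower at day 4. Itpr1, the receptor through which inositol trisphosphate releases calcium, averaged 26.0 ± 4.50 CPM (SD, n = 2) in WT against 70.2 ± 13.0 CPM in KO at day 0 (log2 difference 1.43 ± 0.26, adjusted p = 0.0389). It was also called at day 4 (1.21 ± 0.26, adjusted p = 0.0114) and missed the threshold at day 2 (1.07 ± 0.26, adjusted p = 0.0540). Among protein kinases C, Prkce was higher in KO at day 2 (1.38 ± 0.21, adjusted p = 0.0202) and day 4 (1.78 ± 0.22, adjusted p = 0.00139), and Prkcb (1.66 ± 0.21, adjusted p = 0.00139) and Prkcd (2.01 ± 0.36, adjusted p = 0.00587) were higher in KO at day 4. The list's median difference was 0.21, -0.01 and 0.15 at the 3 days, against 0.03, -0.0035 and -0.03 over all tested genes.

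Of 22 other cyclic nucleotide phosphodiesterases and cyclases tested, none was called at day 0, 1 was higher and 1 lower at day 2, and 5 were higher and 4 lower at day 4. At day 0, 3 of them had an unadjusted edgeR p under 0.05, DESeq2 called 1 and limma-voom 0. Pde3b, which encodes a phosphodiesterase of cyclic AMP, was higher in KO at day 2 (0.92 ± 0.21, adjusted p = 0.0467) and day 4 (1.41 ± 0.23, adjusted p = 0.00335), opposite in direction to Pde2a. At day 4 Pde7b averaged 1.26 ± 0.11 CPM in WT against 26.0 ± 20.1 CPM in KO (4.36 ± 0.63, adjusted p = 0.00267). Pde8b was lower in KO, at 26.7 ± 2.94 CPM in WT and 5.42 ± 0.45 CPM in KO (-2.30 ± 0.29, adjusted p = 0.00139). The list's median difference was -0.00018, -0.01 and -0.37.

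Leukocyte actin genes other than Lsp1, all 20 tested, included no call at day 0, 2 higher in KO at day 2 and 6 higher at day 4, with 0 lower. At day 0, 5 had an unadjusted edgeR p under 0.05, DESeq2 called 4 and limma-voom 0. Was, which encodes the Wiskott-Aldrich protein that starts actin branching, was higher at day 2 (0.68 ± 0.13, adjusted p = 0.0297) and day 4 (0.42 ± 0.13, adjusted p = 0.0424). Hcls1, a cortactin relative of blood cells, was higher at day 2 (1.24 ± 0.18, adjusted p = 0.0173) and day 4 (1.09 ± 0.18, adjusted p = 0.00354). At day 4 Evl, an actin filament elongation gene, averaged 7.32 ± 0.56 CPM in WT against 72.1 ± 40.1 CPM in KO (3.30 ± 0.35, adjusted p = 0.000973). The list's median difference was 0.11, 0.26 and 0.31.

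Of 21 adaptor and signalling genes listed with Sla and Samsn1, none was called at day 0, 2 were higher at day 2, and 10 were higher and 6 lower at day 4. At day 0, 3 had an unadjusted edgeR p under 0.05, DESeq2 called 1 and limma-voom 0. Inpp5d, the lipid phosphatase SHIP, was higher at day 2 (0.52 ± 0.11, adjusted p = 0.0383) and day 4 (0.55 ± 0.11, adjusted p = 0.00784). Sash1, a relative of Samsn1, averaged 44.5 ± 5.28 CPM in WT against 171 ± 34.1 CPM in KO at day 4 (1.94 ± 0.17, adjusted p = 0.000486). Fyb, an adaptor of integrin signalling, was higher (2.60 ± 0.31, adjusted p = 0.00125) and Sh2b3, an inhibitory adaptor of cytokine receptors, lower (-0.81 ± 0.11, adjusted p = 0.00166) at the same day. The median difference of the list was 0.01, 0.34 and 0.50.

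Among 5 tested sialomucins listed with Cd34, none was called at days 0 and 2, and Spn and Cd164 were higher in KO at day 4. At each of the earlier days 1 had an unadjusted edgeR p under 0.05, and DESeq2 and limma-voom called 0. Spn, which encodes CD43, averaged 13.8 ± 2.94 CPM in WT against 7.09 ± 2.72 CPM in KO at day 0, and 13.8 ± 2.07 CPM against 90.5 ± 30.6 CPM at day 4 (2.72 ± 0.36, adjusted p = 0.00177). Of 16 genes of the NDRG family and the hypoxia response, 1 was higher at day 0, 2 at day 2, and 2 were higher and 2 lower at day 4. Hk2, a hexokinase, was higher in KO at day 0 (0.99 ± 0.14, adjusted p = 0.0222), and Sgk1, a kinase that phosphorylates NDRG1, at day 2 (1.38 ± 0.26, adjusted p = 0.0319) and day 4 (3.10 ± 0.28, adjusted p = 0.000561). At those days both were opposite in direction to Ndrg1, and Hk2 differed by -0.38 at day 4 (adjusted p = 0.0867). The other calls, of which Ndrg3, Bnip3 and Adm are named after their values were seen, went both ways. Ndrg3 was higher at day 2 (0.44, adjusted p = 0.0478) and Adm at day 4 (3.47, adjusted p = 0.0416), and Kdm3a (-0.58, adjusted p = 0.0415) and Bnip3 (-0.83, adjusted p = 0.0480) were lower at day 4 like Ndrg1. The list's median difference was 0.42, -0.28 and -0.44.

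Of 20 tested genes of AP-2 and clathrin endocytosis other than Ap2m1, none was called at day 0, 2 were higher and 1 lower at day 2, and 4 were higher and 3 lower at day 4. At day 0, 6 had an unadjusted edgeR p under 0.05, DESeq2 called 4 and limma-voom 0. Epn2, an epsin, was lower in KO like Ap2m1 at day 2 (-1.24 ± 0.22, adjusted p = 0.0259) and day 4 (-1.45 ± 0.22, adjusted p = 0.00267). Necap1, which binds AP-2, was higher at day 2 (0.59 ± 0.13, adjusted p = 0.0465) and day 4 (0.74 ± 0.13, adjusted p = 0.00555). None of the 11 tested genes of the tRNA ligase and tRNA splicing was called by edgeR at any day. Unadjusted edgeR p-values under 0.05 numbered 0, 2 and 1 at the 3 days, DESeq2 called 0, 2 and 0, and limma-voom 0 at each. Ddx1, a partner of Rtraf in the ligase complex, differed by -0.12 ± 0.10, -0.32 ± 0.10 and -0.12 ± 0.10 (adjusted p = 0.666, 0.103 and 0.421). Of the 4 genes listed with Hal, Hdc alone had enough counts to be tested, and its difference was not called (adjusted p = 0.880, 0.511 and 0.257). Among the related genes named here and others of the same naming rule, 2 calls at day 0 and 8 at day 2 were each lost when some single library was left out, and 17 of 23 calls at day 4 were kept in each such fit. When each day was fitted by itself, from 4 libraries, 2 of 2, 1 of 8 and 23 of 23 of these calls were lost.

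**Figure D4:**
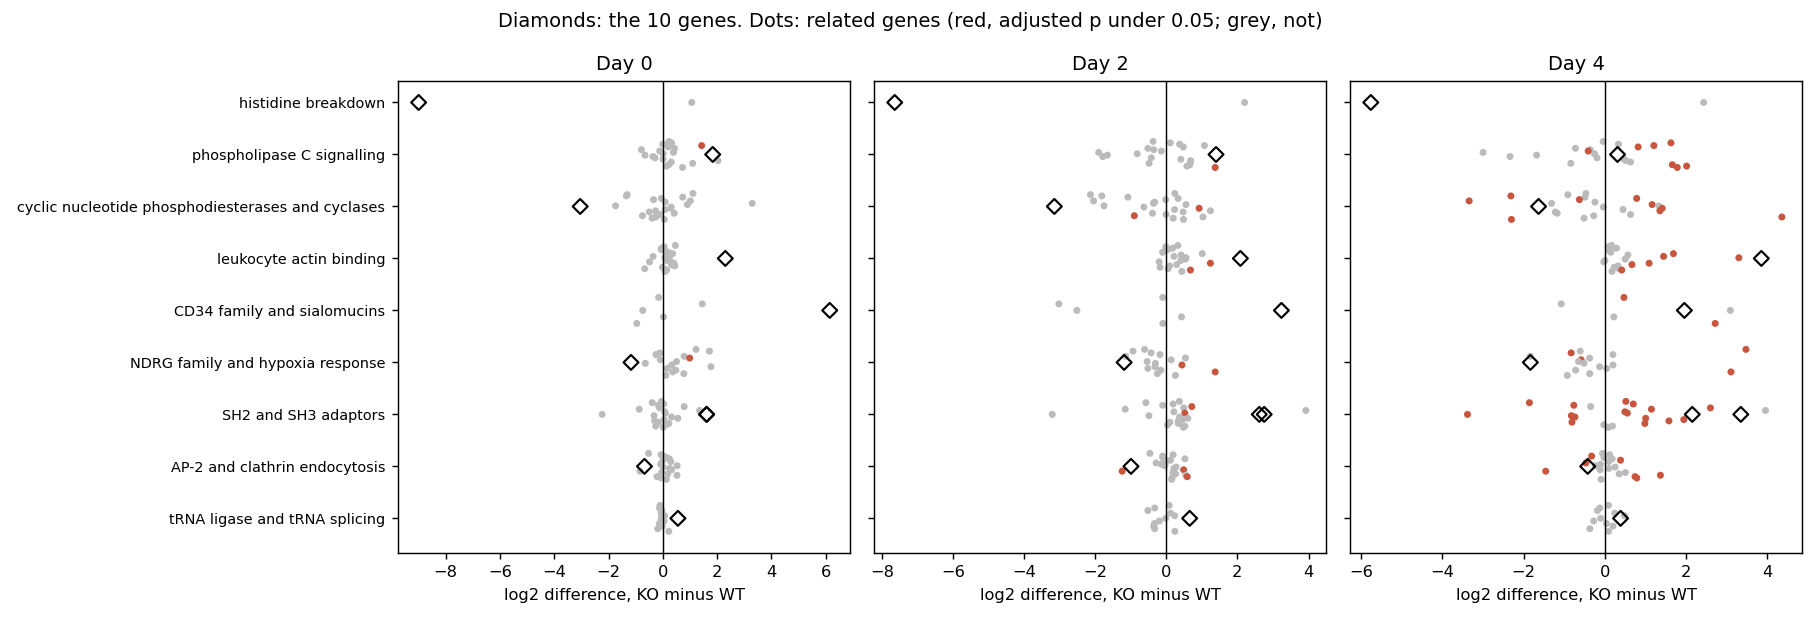
KO minus WT difference (log2) of the 10 genes (diamonds) and of the tested genes listed with them (dots, red where the adjusted p is under 0.05) at days 0, 2 and 4, 1 row per list. Few dots are red at days 0 and 2, and red dots lie on both sides of 0 at day 4 in 5 of the 9 rows.

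Neighbours along the chromosome were compared in the same way, taking the 3 nearest tested genes on each side by RefSeq order. Of 54 such genes, none was called at day 0, Cdk17 and Cr1l were higher in KO at day 2 (3.70%), and 14 were higher and 6 lower at day 4 (37.0%, against 25.6% of all tested genes). At day 0, 7 had an unadjusted edgeR p under 0.05, DESeq2 called 2 and limma-voom 0. Cdk17, near Hal, differed by 0.80 ± 0.15 at day 2 (adjusted p = 0.0297) and 0.87 ± 0.15 at day 4 (adjusted p = 0.00464), opposite in direction to Hal. Cr1l, near Cd34, differed by 0.68 ± 0.11 at day 2 (adjusted p = 0.0234). Calls at day 4 included Ctsd, Syt8 and Tnni2 before Lsp1, all higher in KO as Lsp1 was. Ctsd, a lysosomal protease, averaged 1540 ± 96.4 CPM in WT and 6367 ± 2159 CPM in KO (2.05 ± 0.23, adjusted p = 0.00102). Syt8 was near the floor, at 0 CPM in WT and 0.54 ± 0.26 CPM in KO. The genes after Lsp1 were not called: Prr33 differed by 3.23, Mrpl23 by -0.52 and H19 by -0.20. Day 4 calls also included Gng2, a G protein subunit gene beside Rtraf (2.27 ± 0.27, adjusted p = 0.00123), and Bmf, a cell death gene near Plcb2 (2.09 ± 0.30, adjusted p = 0.00238). Elk3, Lta4h, Srp14, Traf3ip3, Tmem71, Usp25 and Ube2e2 were also higher, and Clpb, G0s2, Zfat, Gbe1, Nrip1 and Dvl3 lower.

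A neighbour with large differences that missed the threshold was Ntn4, the second tested gene after Hal, singled out after its values were seen. It averaged 0.529 ± 0.50 CPM in WT against 20.5 ± 11.9 CPM in KO at day 0 (5.25 ± 1.32, adjusted p = 0.109), and 1.34 ± 0.54 against 38.5 ± 30.4 CPM at day 2 (4.83 ± 1.23, adjusted p = 0.0649). Sla and Ndrg1 lie on chromosome 15 with 1 tested gene between them, Ccn4, and differed in opposite directions at each day. Ccn4 itself varied widely between replicates and was not called (adjusted p = 0.969, 0.666 and 0.838). Hal and Lyz2 are both on chromosome 10 with 54 tested genes between them. Both day 2 neighbour calls, and 15 of the 20 at day 4, were lost when some single library was left out, and 19 of the 20 were lost when day 4 was fitted by itself.

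**Figure D5:**
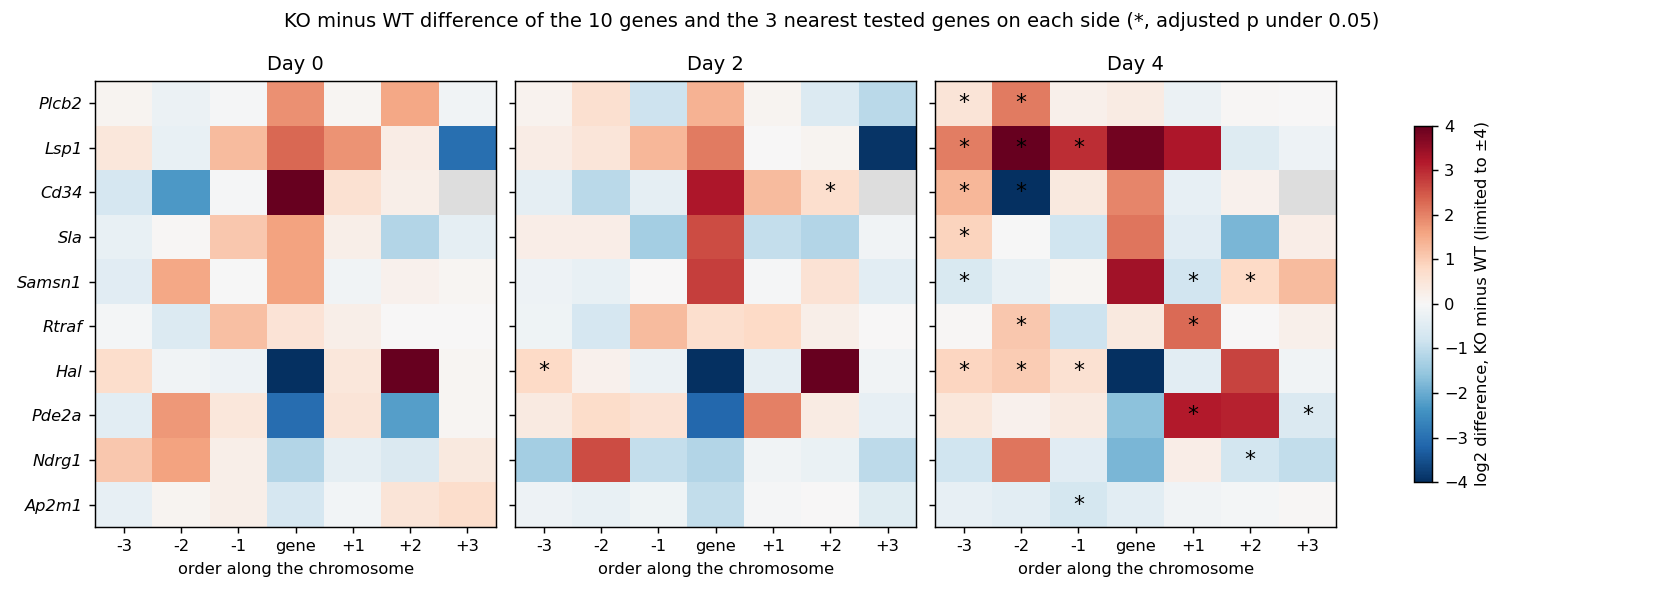
KO minus WT difference (log2, colour, limited to ±4) of each of the 10 genes (middle column) and the 3 nearest tested genes on each side, at days 0, 2 and 4. Stars mark neighbours with an adjusted p under 0.05 and grey a missing neighbour. No star stands at day 0, 2 stand at day 2 and 20 at day 4.

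Across the 12 libraries, the profile most like that of each gene was sought by Pearson correlation of log2(CPM + 1), as a description, since all libraries share the genotype and day contrasts. For Hal the closest were Nyap1 (r = 0.97) and Lyz2 (r = 0.95), and for Sla Cyth4 and Tapbpl (both 0.97). Tbl1x was among the 2 closest to Samsn1 (0.98). Lsp1 was most like Ly6e (0.97) and Pdlim2 (0.96), Plcb2 most like Afdn (0.96) and F11r (0.93), and Pde2a most like Slc29a1 and Slc24a5 (both 0.95). The closest to Rtraf were Tm7sf3 (0.95) and Agap2 (0.94), to Ap2m1 Ttc39a (0.95) and Pdcd6ip (0.93), to Ndrg1 Lcmt2 (0.94) and Plekhm1 (0.93), and to Cd34 Naaa (0.93) and Rpl3 (0.92). Among the 10 genes themselves, the highest correlations were Pde2a with Ap2m1 (r = 0.94), Cd34 with Rtraf (0.93) and Lsp1 with Sla (0.92). The lowest was Hal with Rtraf (r = -0.95). All 10 genes were chosen for a genotype difference, which by itself favours a large r of either sign. These values therefore do not show that a pair changed together over time.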

How the data were processed

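The 12 RNA libraries were used, of 37 samples in all; 12 ATAC-seq and 13 CUT&Tag samples were not used here. The authors deposited a table of expected counts per gene, which are whole numbers, and a table of TPM, per the file headers. Per the submitters' processing notes, the tools included Trim Galore 0.6.1, STAR 2.7.3a and RSEM 1.3.1, and mm9 and mm10 are both named without a role. Strand setting and gene models are not given in the sources used here. The design text speaks of osteoblasts where the labels speak of osteoclastic differentiation; the labels were followed.

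A single edgeR model (version 4.0.16, R 4.3.3) covered the 12 libraries, with TMM scaling, a minimum count of 10 in filterByExpr, 1 mean per group and robust quasi-likelihood F tests, two-sided, with Benjamini-Hochberg adjustment over the genes tested. The common biological coefficient of variation was 0.261. Each SE is the absolute log2 difference over the root of F. CPM used TMM-scaled totals. Members, gene lists and tests were chosen with earlier results of these data known. The 10 genes were part of that fit, but since their KO minus WT differences chose them, no p-value or call of theirs between genotypes is reported; their tests are over time with the genotypes averaged.

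Related genes were named if called at 2 or more days or among the 3 of a list with the smallest adjusted p. Called neighbours were named, except pseudogenes and predicted genes, and the 2 most correlated genes of each member; some of these names are left out of the text. Gene names matched RefSeq for 21597 of 23168 (93.2%), which gave chromosome order and promoters only. Ratios of Hal and Cd34 are of counts pooled over the 2 libraries of a group and scaled by library size. The scripts were tested on simulated counts. Alternatives were DESeq2 size factors, no filter, limma-voom (limma 3.58.1), the Wald test of DESeq2 1.42.0, a filter of 5 CPM in 2 libraries, limma on log2(TPM + 1), a log2 change of at least 1, each day alone, replicate blocks and each library left out.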

Additional observations from a re-analysis of the deposited data

Results flagged for a closer look

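For 3 of the 10 genes every library of 1 genotype moved one way from the day 0 libraries while every library of the other genotype moved the opposite way. Plcb2 changed by 0.34 ± 0.12 (SE) on the log2 scale in WT from day 0 to day 2. Its change in KO was -0.10 ± 0.12, no larger than its SE. Pde2a changed by -0.21 in WT and by 1.21 in KO from day 0 to day 4. Cd34 changed by 1.55 in WT and by -1.36 in KO from day 0 to day 2, and by 3.39 in WT and by -0.80 in KO from day 0 to day 4. The WT values of Cd34 rest on 3 counts at day 0 and 9 at day 2. These differences between genotypes were not tested, because the KO minus WT values chose the genes. The share of all tested genes with such opposite moves was not computed, so the count is a description only.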

How the results depend on the processing

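Of 597 recomputed KO minus WT differences of the 10 genes, none changed sign, and 48 moved by more than the spread between replicates. The choice of the genes favoured a stable sign, since both KO libraries lay on 1 side of both WT libraries at each day. Most fits without 1 library left out a library of another day, which moved a difference little. Of 418 recomputed time changes, 367 kept their side of the threshold, 47 lost a call and 4 gained one, with no change of direction among called values. Counts of calls moved more. KO against WT gave 202 calls at day 0, 577 at day 2 and 3271 at day 4. The DESeq2 Wald test gave 754 at day 0 and 1634 at day 2. Fitted with the libraries of a day alone, there were 7, 1005 and 2. Requiring a log2 change of at least 1 gave 332 at day 2 and 1653 at day 4, and for time 813 (none of the 10 genes, 0) at day 2 and 4201 (3 of the 10) at day 4. Leaving out 1 library gave 2 (without either KO day 0 library) to 459 (without KO day 4 replicate 1) at day 0. It gave 1 (without WT day 2 replicate 2) to 1719 (without KO day 4 replicate 1) at day 2, and 1118 (without WT day 4 replicate 2) to 4457 (without KO day 4 replicate 1) at day 4. The time counts ranged from 1554 (without KO day 0 replicate 2) to 3914 at day 2 and from 7209 to 8036 at day 4; for the 10 genes they ranged from 2 (without WT day 2 replicate 2) to 5 and from 4 (without WT day 0 replicate 1, WT day 4 replicate 2 or KO day 0 replicate 2) to 6. The cause was not tested. A group left with 1 library was given the spread of the rest.

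Replicate numbers are shared between groups, but differences between replicates 1 and 2 did not correlate alike in all pairs of groups: across genes r was 0.45 to 0.638 within KO, 0.0983 to 0.31 within WT and -0.551 to 0.0374 between genotypes. With the replicate block, KO against WT gave 216, 694 and 3212 calls and time gave 2995 and 8029, with 4 and 6 of the 10 genes; the Pde2a call at day 4 was lost (adjusted p = 0.0610). With WT numbers crossed, an alternative added after seeing the data, there were 302, 1211 and 3716. With a replicate block within each genotype, also added after seeing the data, time gave 3630 and 8501 calls, with 5 and 7 of the 10 genes; Lsp1 at day 2 was gained (adjusted p = 0.0396). On the TPM scale the median of all genes shifted by -0.117 at KO against WT, day 2. No difference of the 10 genes changed sign there, which their choice favoured. Depth limits Hal in KO and Cd34 in WT, at 1 to 37 counts a group.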
